A study of Mus musculus with 6 samples.

Results

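Lysosomes digest what autophagy and endocytosis deliver to them, and the 10 genes described here encode parts of that machinery. They are the cysteine proteases Ctsb, Ctsl, Ctsh, Ctss and Ctsz, the serine carboxypeptidase Ctsa, the aspartic protease Ctsd, the membrane glycoproteins Lamp1 and Lamp2, and Tfeb, a transcription factor of lysosomal genes. The genes were taken by their symbol in the platform annotation, which found all 10 among 23185 named genes, each with 1 probe set. The arrays measured RNA of FVB mice, an inbred strain: 3 arrays from irisin knockout animals and 3 from wild type littermates, both fed chow with 10% fat for 24 weeks. Irisin is a hormone cleaved from the product of Fndc5, and the line was made by injecting FVB zygotes with Cas9 mRNA and 5 guide RNAs. The deleted stretch of Fndc5 and the number of founders are not stated in the labels. Some labels call the material cardiomyocytes and another calls it myocardium. Nothing in the labels settles whether replicate arrays came from separate animals, so p-values may measure only technical spread.

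Cathepsins are made as inactive precursors, reach the lysosome mostly on mannose 6-phosphate receptors and become active at its acid pH. LAMP proteins line the lysosomal membrane, and loss of LAMP2 in humans causes Danon disease, which damages the heart muscle. TFEB is held in the cytoplasm when nutrients are plentiful, through phosphorylation by the kinase complex mTORC1. When released it enters the nucleus and binds CACGTG-centred sites, known as CLEAR elements, near lysosomal genes. An RNA array measures the message of Tfeb and not where the protein is.

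Those sites can be looked for in the promoters of the members, and the stretches that hold CACGTG are shown so that they can be set beside the changes described below. RefSeq windows of 250 bases before to 50 after a gene's start (build GRCm38.p6) were held for 8 members. Ctsb and Ctsh had no entry. CACGTG reads the same on both strands and lay in a window of 4 of the 8 members, against 8.09% of all 27025 genes with a window. The bases before the start on which the window was set follow where they hold it, 5′ to 3′ on the gene's strand, with CACGTG in capitals.
Lamp1, chr8:13159085-13159160, plus strand: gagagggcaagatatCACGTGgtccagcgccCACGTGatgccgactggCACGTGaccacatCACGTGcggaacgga
Ctsd, chr7:142387905-142388077, minus strand: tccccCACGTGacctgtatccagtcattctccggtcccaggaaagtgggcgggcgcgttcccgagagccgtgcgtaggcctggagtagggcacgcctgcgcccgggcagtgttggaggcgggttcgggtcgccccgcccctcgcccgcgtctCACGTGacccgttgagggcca
Ctsa, chr2:164833749-164833772, plus strand: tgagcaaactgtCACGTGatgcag
Ctsl, chr13:64370739-64370768, minus strand: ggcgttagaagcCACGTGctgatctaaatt

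Lamp1 held 4 copies within 61 bases before its start, Ctsd held 2 and Ctsl 1. The Ctsl window was set on a start 252 bases inside the annotated gene, so the stretch shown lies within the gene and not before it. Ctsa held 1 copy 12 bases before and another from base 6 after a start 901 bases inside the gene, and its window at the gene's outer start held 0. The windows of Lamp2, Ctsz, Ctss and Tfeb held 0 copies. CATGTG, searched on both strands and not overlapping CACGTG, was in Ctsa and Ctss and in 15.9% of all genes with a window. A match is a run of letters and not a shown binding site.

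Before the members, the arrays themselves need a few values. Fndc5 stood at 7.68, 5.49 and 5.45 log2 units in knockout replicates 1, 2 and 3, against 8.42, 8.40 and 7.83 in wild type (difference -2.01, limma adjusted p = 0.0359), with knockout replicate 1 nearest to wild type. The call was lost in 5 of the 6 cases with 1 array left out (adjusted p 0.0617 to 0.133) and held without knockout replicate 1 (-2.75, 0.00217). Of all genes, 10.4% were called higher and 6.18% lower in the knockout at an adjusted p under 0.05, or 16.6% in either direction. Rises made up 62.8% of these calls, 55.2% after quantile normalization and 75.4% after centring each array on its median. A larger share was called among the brightest genes than among all genes. Among the brightest 10% of genes 34.5% were higher and 11.1% lower, and the median difference there was 0.27 log2 units. Array medians lay between 2.13 and 2.28, and the 3 arrays per group limit the precision. The labels name no batch, and a batch that matched genotype cannot be told apart from genotype. The 12 cardiomyocyte markers had a mean of 10.99 to 11.15 in the knockout and 10.77 to 11.16 in wild type. Markers of other cell types were present too, as given beside the genes below.

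The members split in the knockout. Ctsb, Lamp2 and Ctsa rose, Ctsz and Ctsl fell, and Ctsd, Lamp1, Tfeb, Ctss and Ctsh did not pass the test. These 5 calls of 10 stand beside the 16.6% of all genes called. All 5 came from the 7 members in the brightest 10% of genes, where 45.7% of genes were called. The other members, Ctsh, Ctss and Tfeb, lay in level class 8 of 10, where 32.5% of genes were called, and 0 of these 3 were (limma; Ctss alone had an unadjusted p under 0.05). The median difference of the members was 0.021, against -0.045 for all genes, and it was -0.20 after quantile normalization. The calls of the 3 rises were lost after quantile normalization, at 0.34 to 0.45, and held after centring each array on its median. Those of the 2 falls held under both scalings, but their sizes moved. Ctsl ran from -0.79 after quantile normalization to -0.49 after centring (limma adjusted p = 0.00523 and 0.0420).

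**Figure D1:**
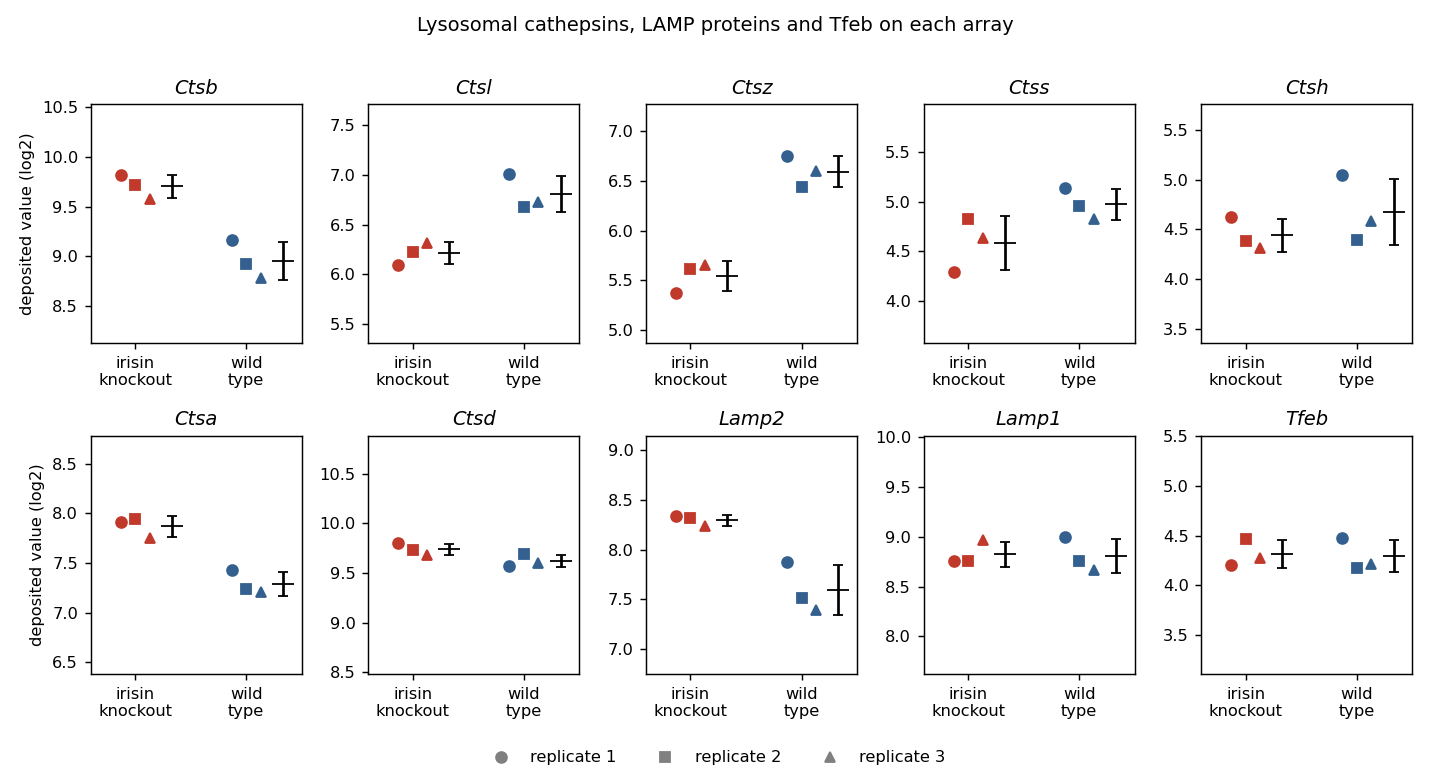
Deposited log2 values of the 10 members on each array, irisin knockout on the left of each panel and wild type on the right, with each replicate's symbol and the mean ± SD (n = 3). All panels span the same range; the groups lie apart for Ctsb, Ctsl, Ctsz, Ctsa and Lamp2 and overlap for the other members.

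Among the cysteine proteases, Ctsb was the member that rose. It encodes cathepsin B, which cuts proteins internally and also trims dipeptides from their ends. It read 9.82, 9.72 and 9.58 in knockout replicates 1 to 3, against 9.16, 8.92 and 8.78 in wild type, so the lowest knockout array lay above the highest wild type array. The difference was 0.75 (SE 0.14, limma adjusted p = 0.00788), a 1.68-fold rise. After quantile normalization the difference was 0.44 and the call was lost (limma adjusted p = 0.0780), whereas it held without knockout replicate 1 (0.69, 0.0397).

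Ctsl, which encodes cathepsin L, a potent endopeptidase whose loss in mice leads to a dilated heart, fell. It read 6.09, 6.23 and 6.32 in the knockout and 7.01, 6.67 and 6.73 in wild type. The groups did not overlap, which held for 34.1% of all genes. The difference of -0.59 (SE 0.13, limma adjusted p = 0.0192) makes Ctsl 1.51-fold lower in the knockout. The call was lost without knockout replicate 1 (-0.53, limma adjusted p = 0.0792) or 2 (-0.60, 0.0687), and without both arrays numbered 1 (-0.43, 0.123). In RNA of many cells together, fewer cells of a type and less RNA per cell cannot be told apart.

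Because Ctsb rose and Ctsl fell on the same arrays, the gap between their log2 values does not depend on a shift of a whole array. Ctsb minus Ctsl was 3.72, 3.49 and 3.26 on the knockout arrays and 2.15, 2.25 and 2.05 on the wild type arrays. The gap was 1.34 wider in the knockout and 1.24 wider after quantile normalization. The pair was set side by side with their opposite directions known, which fixes that the gap does not overlap, so this is a description with no test.

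Ctsz had the largest difference of the 10. Its product, cathepsin Z (also named X), is a carboxypeptidase that removes single residues from protein ends and is abundant in macrophages. It read 5.37, 5.61 and 5.65 in the knockout and 6.76, 6.44 and 6.60 in wild type. The difference was -1.05 (SE 0.14, limma adjusted p = 0.00196), and Ctsz was 2.07-fold lower. The call held in all 18 alternative settings, with -1.24 after quantile normalization and -0.95 after centring each array on its median. Without knockout replicate 1 it was -0.96 (limma adjusted p = 0.0120).

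Ctss and Ctsh did not pass. Ctss encodes cathepsin S, which trims the invariant chain of MHC class II in antigen-presenting cells. It read 4.29, 4.83 and 4.64 in the knockout and 5.14, 4.96 and 4.82 in wild type, and the groups met at knockout replicate 2. The difference was -0.39 (95% interval -0.76 to -0.015), with a limma adjusted p of 0.154. Ctsh, an aminopeptidase, read 4.62, 4.38 and 4.31 in the knockout and 5.05, 4.39 and 4.58 in wild type. Its groups overlapped, and the difference of -0.24 had a 95% interval of -0.65 to 0.18 (limma adjusted p = 0.449).

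Among the cathepsins outside the cysteine class, Ctsa rose and Ctsd did not pass. Ctsa encodes cathepsin A, also called protective protein, which keeps β-galactosidase and neuraminidase 1 stable. It read 7.91, 7.94 and 7.75 in the knockout and 7.43, 7.23 and 7.21 in wild type, with no overlap. The rise was 0.58 (SE 0.12, limma adjusted p = 0.0138), or 1.49-fold. It lost its call after quantile normalization (0.34, limma adjusted p = 0.0773) and without knockout replicate 1 (0.56, 0.0579) or 2 (0.54, 0.0642).

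Ctsd encodes cathepsin D, the main aspartic endopeptidase of the lysosome. It read 9.80, 9.74 and 9.68 in the knockout and 9.57, 9.69 and 9.60 in wild type. The groups met at 9.68 and 9.69, with SDs of 0.057 in the knockout and 0.062 in wild type. The difference of 0.12 had a 95% interval of -0.13 to 0.37 (limma adjusted p = 0.539) and turned to -0.13 after quantile normalization.

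The 2 LAMP genes, whose products are close relatives, read differently. Lamp2 stood at 8.34, 8.32 and 8.24 in the knockout and 7.88, 7.51 and 7.39 in wild type. The knockout arrays were tight (SD 0.054) and the wild type arrays looser (SD 0.25), and they did not overlap. The rise was 0.70 (SE 0.15, limma adjusted p = 0.0132), or 1.63-fold. It lost its call after quantile normalization (0.45, limma adjusted p = 0.0534) and without knockout replicate 1 (0.68, 0.0544) or 2 (0.69, 0.0565). One probe set stands for Lamp2, so its splice forms, of which LAMP2A serves chaperone-mediated autophagy, were not told apart.

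Lamp1 stood at 8.75, 8.75 and 8.97 in the knockout and 8.99, 8.76 and 8.67 in wild type. Its arrays overlapped fully, and the difference was 0.018 (95% interval -0.29 to 0.32, limma adjusted p = 0.952). Whether Lamp1 and Lamp2 differ in their response was not itself tested. The sign turned after quantile normalization (-0.26).

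Tfeb read 4.20, 4.47 and 4.27 in the knockout and 4.48, 4.18 and 4.22 in wild type. The groups overlapped, and the difference of 0.024 had a 95% interval of -0.28 to 0.33 (limma adjusted p = 0.935). Changes of more than 1.26-fold either way lie outside that interval. The 3 genes of at least median level nearest to Tfeb over the 6 arrays were Pafah1b2, Nbdy and Copg1, with root mean square differences of 0.021, 0.035 and 0.042 log2 units after centring each gene. Their own differences were -0.011, 0.038 and 0.087, and none passed limma's test. Choosing genes by closeness to Tfeb on these same arrays fixes that their differences lie near its own. This is therefore a description and no support for the Tfeb result.

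**Figure D2:**
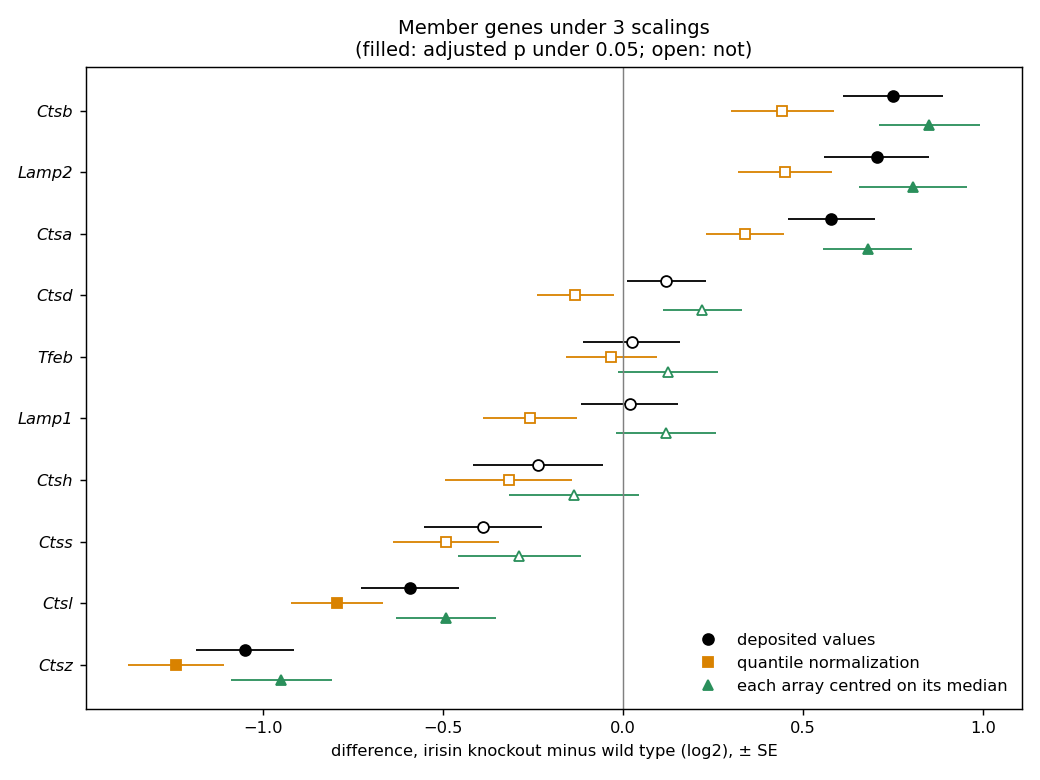
Log2 difference of each member with its SE, irisin knockout minus wild type, on the deposited values, after quantile normalization and after centring each array on its median. Filled symbols passed an adjusted p under 0.05; Ctsz and Ctsl stay filled and negative in all 3, while Ctsb, Lamp2 and Ctsa are open after quantile normalization at 0.44, 0.45 and 0.34.

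Quantile normalization moved the bright members more than the dimmer ones. It lowered the differences of the 7 members in the brightest 10% of genes by 0.19 (Ctsz) to 0.31 (Ctsb), and those of Tfeb, Ctsh and Ctss by 0.057, 0.082 and 0.10. Against the median difference of 0.27 in that class, Ctsb, Lamp2 and Ctsa lay above, Ctsd and Lamp1 lay below while near 0, and Ctsl and Ctsz lay on the other side of 0. Centring each array on its median raised every gene by 0.10. All 5 calls held under that scaling.

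**Figure D3:**
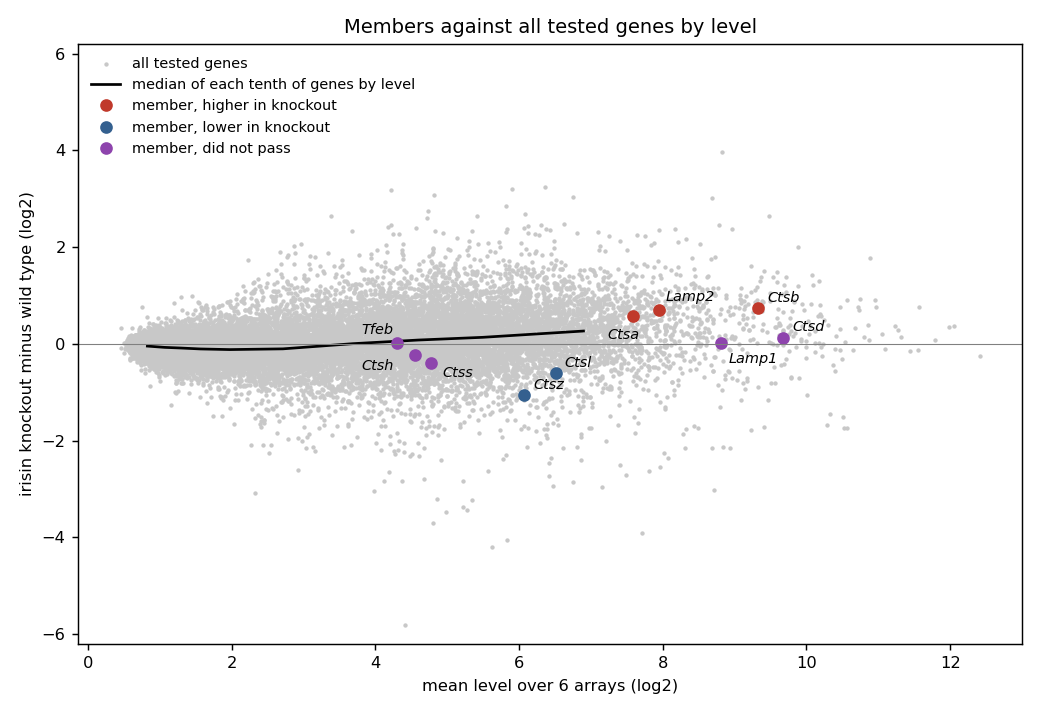
Difference against mean level over the 6 arrays for all 23185 tested genes in grey, with the median of each of 10 level classes as a line and the members in colour. The line reaches 0.27 in the brightest class, and Ctsl and Ctsz lie below it at -0.59 and -1.05.

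Of the 7 other cathepsins tested, Ctsf rose by 0.57 (limma adjusted p = 0.0469). That call was lost in 9 of 18 alternative settings, among them quantile normalization (0.0686), the replicate block (0.0640) and leaving out wild type replicate 3 (0.0792) or any 1 knockout array (0.116 to 0.138). The other 6 did not pass. Ctsk, the collagen-cutting cathepsin of osteoclasts and fibroblasts, came nearest among these, at 2.01, 2.21 and 1.99 in the knockout and 3.40, 2.37 and 2.82 in wild type (-0.80, limma adjusted p = 0.0530), and was picked out after its values were seen. It was called lower without the dimmest 30% (0.0406) or 50% (0.0325) of genes, with array weights (0.0374), without wild type replicate 2 (0.0102) and at a threshold of 0.1. Its level in the knockout was below the median of all genes, 2.30. Among endogenous inhibitors Cst3, which encodes the secreted inhibitor cystatin C, fell. It read 7.62, 7.83 and 7.74 in the knockout and 8.54, 8.50 and 8.52 in wild type, 0.79 lower (SE 0.11, limma adjusted p = 0.00277). The other 6 inhibitors tested did not pass.

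Of the 3 relatives of Tfeb, Mitf rose. It read 7.06, 7.22 and 6.78 in the knockout and 5.88, 6.39 and 6.29 in wild type, a difference of 0.83 (SE 0.17, limma adjusted p = 0.0136). MITF binds the same kind of site as TFEB. The call was lost after quantile normalization (limma adjusted p = 0.0623) and without knockout replicate 1 (0.0549) or 2 (0.0633). Tfe3, at -0.11 (limma adjusted p = 0.636), and Tfec, at -0.12 (0.705), did not pass.

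Other lysosomal genes held more rises than falls, as did all genes. Over 101 further genes of lysosomal proteases, hydrolases, membrane proteins, proton pump and sorting, 31 rose (30.7%), 4 fell (3.96%) and 66 did not pass, with a median of 0.25, against 10.4% and 6.18% of all genes. The rises were 22 after quantile normalization, and 20, 15 and 19 without knockout replicate 1, 2 or 3. The falls were 0 without knockout replicate 1 or 2 or wild type replicate 1, and 1 without knockout replicate 3, without wild type replicate 3 or after centring. The lists were drawn up with earlier results of these data known. Of these genes 20 lay in the brightest 10%, where 34.5% of all genes were called higher and 11.1% lower. In level class 8 of 10 those shares were 20.7% and 11.7%. The 101 genes were not matched to all genes by level, and the part of level in these counts was not tested.

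Hydrolases held 11 of those rises among 33 tested, with 0 called lower (limma; 2 had an unadjusted p under 0.05 in that direction) and a median of 0.33. Of the 33 hydrolases 33.3% were called, against 16.6% of all genes and 45.7% in the brightest 10%. Ppt1, which removes palmitate from proteins, rose by 1.26 (SE 0.13). Idua, which cuts heparan and dermatan sulfate, rose by 1.42 (SE 0.17). Lipa, the lysosomal acid lipase, rose by 0.98 (SE 0.13), and Smpd1, acid sphingomyelinase, by 1.07 (SE 0.18). Their limma adjusted p lay between 0.000804 and 0.00589. The count of rises was 7 without knockout replicate 2 or 3. After quantile normalization 9 hydrolases were called higher and 1 lower. The peptidase Tpp1, deficient in a childhood neuronal ceroid lipofuscinosis of humans, rose by 0.84 (limma adjusted p = 0.00930). Dpp7, another peptidase, fell by 0.49 (0.0366) but lost its call without any 1 of the 6 arrays.

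Of 27 genes listed as other lysosomal membrane proteins, with the soluble Npc2 counted among them, 9 rose, 2 fell and 16 did not pass. Their median was 0.26, and 40.7% were called, against 16.6% of all genes and 45.7% in the brightest 10%. Npc1, the cholesterol exporter, read 7.73, 7.86 and 7.74 in the knockout and 6.34, 6.39 and 6.31 in wild type (1.43, SE 0.11, limma adjusted p = 0.000292). This was the lowest adjusted p of the lysosomal lists. Slc17a5, which exports sialic acid, rose by 1.31, Ostm1, the partner of the chloride exchanger Clcn7, by 1.00 and Abca2 by 0.64. The falls, picked out after their values were seen, were Npc2 at -0.50, the soluble partner that hands cholesterol to NPC1, and the two-pore channel Tpcn2 at -0.89. With 1 array left out, Npc2 lost its call in 5 of 6 cases and Tpcn2 in 4. Without knockout replicate 1 the count of rises was 5, and without replicate 2 it was 4.

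The proton pump that acidifies the lysosome rose in 5 of 19 subunits and fell in 1, with a median of 0.20. Its called share was 31.6%, against 16.6% of all genes, 32.5% in level class 8 of 10 and 45.7% in the brightest 10%. Atp6v0a1 rose by 0.72 (limma adjusted p = 0.00550), Atp6v0a2 by 0.89, Atp6v1c1 by 0.64 and Atp6v1b2 by 0.64. Atp6v0b, picked out after its value was seen, fell by 0.42 (0.0410), a call lost without any 1 of the 6 arrays, with the replicate block (0.0815) and after centring (0.115). The count of rises was 2 after quantile normalization, 2 without knockout replicate 1, 1 without replicate 2 and 1 without replicate 3. It was 3 without wild type replicate 2 and 2 without replicate 3.

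Sorting genes rose in 4 of 9, with 0 called lower (limma; 0 with an unadjusted p under 0.05) and a median of 0.38. Gnptab, which starts the mannose 6-phosphate tag, rose by 0.84 (limma adjusted p = 0.00429), and Nagpa, which uncovers it, by 0.83 (0.00531). The receptor M6pr rose by 0.84 (0.0137) and the adaptor Gga1 by 0.54 (0.0256). Of these 9 genes 44.4% were called, against 16.6% of all genes, 32.5% in level class 8 of 10 and 45.7% in the brightest 10%. Without knockout replicate 1 or 2 the count of rises was 2. With 1 array left out, M6pr lost its call in 2 of 6 cases and Gga1 in 4.

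Regulators of TFEB at the lysosome rose in 5 of 21 (23.8%), with 0 called lower (limma; 3 with an unadjusted p under 0.05) and a median of 0.15. Of all genes 10.4% were called higher, and 34.5% in the brightest 10%, where Rragd, Ppp3cb and Rheb lay. Rragd, a Rag GTPase that brings TFEB to the lysosome, read 7.31, 7.33 and 7.23 in the knockout against 6.25, 5.73 and 5.09 in wild type. Its rise was 1.60 (SE 0.25), with the wild type arrays the more scattered. Ppp3cb, a catalytic subunit of calcineurin, which dephosphorylates TFEB, rose by 1.13, and Fnip1, a partner of folliculin in the control of RagC and RagD, by 0.85. Rheb, the activator of mTORC1, rose by 0.81. The limma adjusted p of these 4 lay between 0.00327 and 0.00931. Mtor itself, at -0.053, did not pass (0.871). After quantile normalization 4 of these regulators were called higher and 1 lower.

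**Figure D4:**
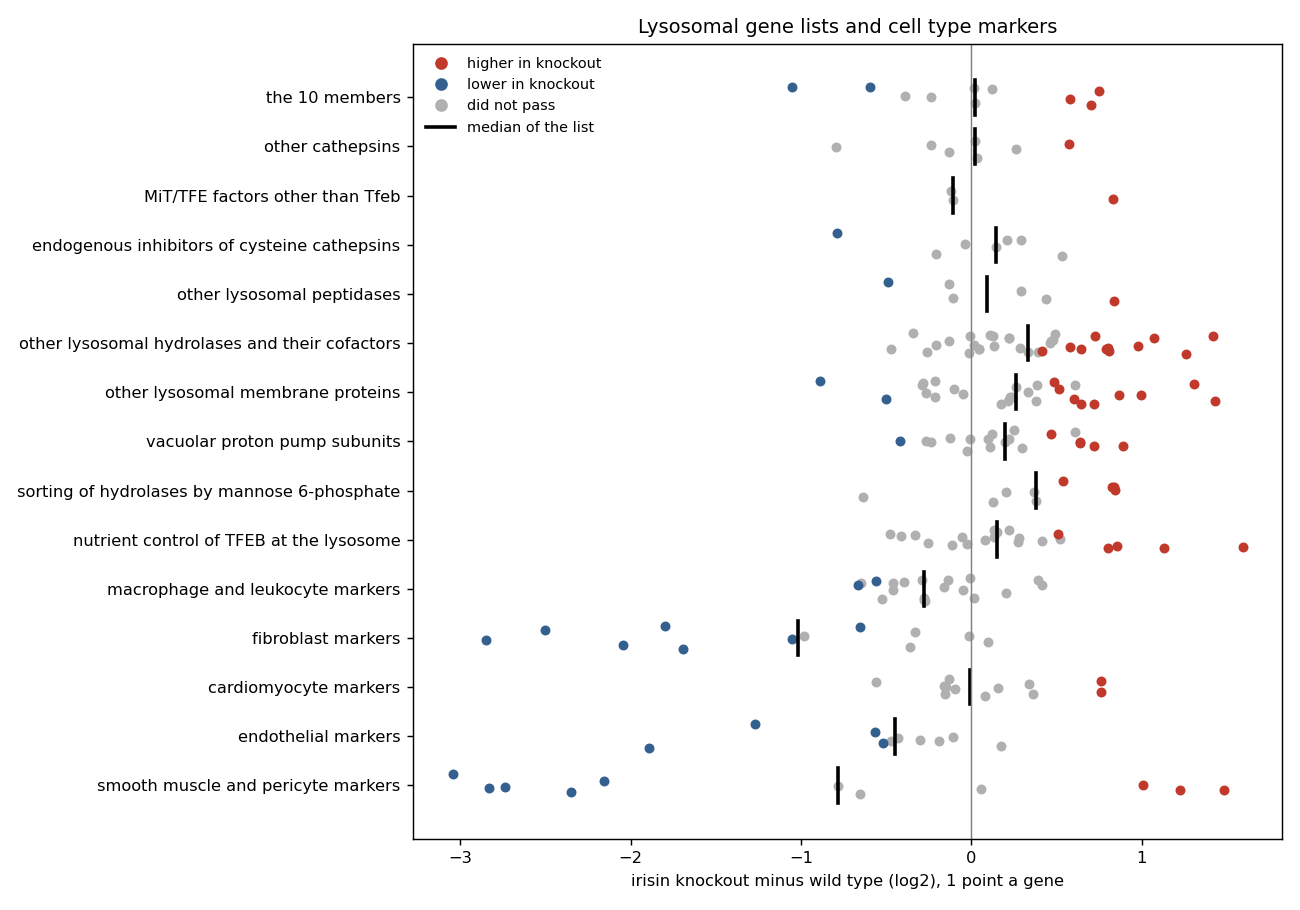
Log2 difference of each tested gene, irisin knockout minus wild type, for the 10 members, 9 other lists of lysosomal genes and 5 lists of cell type markers, with the median of each list as a bar. Hydrolases, membrane proteins and sorting genes have medians of 0.33, 0.26 and 0.38, and fibroblast markers one of -1.02.

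Genes with and without the promoter motif were found among the rises, the falls and the rest. Of the 4 members with CACGTG, Ctsa rose, Ctsl fell and Ctsd and Lamp1 did not pass. Of those without it, Lamp2 rose, Ctsz fell and Ctss and Tfeb did not pass. Over the members and the other lysosomal lists, 9 of 33 genes with the motif rose and 3 fell, against 25 and 4 of 83 without it. Over all tested genes with a window, 14.0% of 1603 with the motif and 10.8% of 15849 without it were called higher, but the first had a median level of 3.69 and the second of 2.33. In the brightest 10% the shares were 31.2% and 36.3%. These are descriptions, and nothing about TFEB binding follows from them.

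Cells other than cardiomyocytes also carry cathepsins, so the values of cell type markers are given here. Whether they bear on the members was not tested. Of 19 macrophage and leukocyte markers Mrc1 (-0.66, limma adjusted p = 0.00715) and Fcgr3 (-0.56, 0.0304) fell and 17 did not pass, with a median of -0.27. The called share was 10.5%, against 16.6% of all genes. The summed linear signal of that list was 464 to 479 in the knockout and 516 to 561 in wild type. Of the 19, 15 had a lower knockout mean and 4 a higher one. Groups lay apart with the knockout lower for 8 and higher for 2, against 17% and 17.2% of all genes. Among those that did not pass, C1qa stood at -0.52 (limma adjusted p = 0.0683), Tyrobp at -0.46 (0.0712) and Mertk at -0.65 (0.0804). Adgre1 at -0.0098 and C1qb at 0.017, both defining macrophage genes, did not pass either. Neither did Cd68, a lysosomal membrane protein of macrophages, at 0.39 (0.0731), nor Ccr2 at 0.42 (0.0865), whose knockout arrays all lay above wild type. Fcgr1, Aif1 and Ccr2 lay below the median level of all genes. The call of Fcgr3 was lost when any 1 of 4 arrays was left out, and 1 marker fell without knockout replicate 1 or 2.

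Of all genes 6.18% were called lower and 10.4% higher, and in the brightest 10% these shares were 11.1% and 34.5%. Fibroblast markers fell in 7 of 12, led by Col3a1 (-2.85) and Col1a1 (-2.50), with sums of 1878 to 1990 in the knockout and 2266 to 3845 in wild type. The count was 4 without knockout replicate 2 or 3. Endothelial markers fell in 4 of 10, among them Vwf (-1.89) and Egfl7 (-1.27), with sums of 1664 to 1953 in the knockout and 2268 to 2342 in wild type. That count was 2 without knockout replicate 1 or 2. Smooth muscle and pericyte markers fell in 5 of 11, such as Myl9 (-2.74) and Acta2 (-2.16), and rose in 3, such as Rgs5 (1.23) and Kcnj8 (1.49). Their sums were 2602 to 2773 in the knockout and 2561 to 4203 in wild type, and the falls were 3, 2 and 3 without knockout replicate 1, 2 or 3. Cardiomyocyte markers rose in 2 of 12 (16.7%), Actn2 (0.76) and Pln (0.76), and all 12 lay in the brightest 10%, where 34.5% of genes were called higher. Of the 12, 6 had a lower knockout mean. Groups lay apart with the knockout higher for 4 and lower for 1, against 17.2% and 17% of all genes. The 4 were Actn2, Pln, Actc1 (0.34, limma adjusted p = 0.0949) and Tnnt2 (0.36, 0.174). The 1 was Ttn at -0.56 (limma adjusted p = 0.0855). The median of the 12 markers was -0.0089, with sums of 30164 to 31495 in the knockout and 23597 to 31210 in wild type. Pln lost its call without any 1 knockout array (limma adjusted p 0.0773 to 0.0984). The part of these markers in the values of Ctsz, Ctsl, Ctss, Ctsh and Cst3 was not tested.

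**Figure D5:**
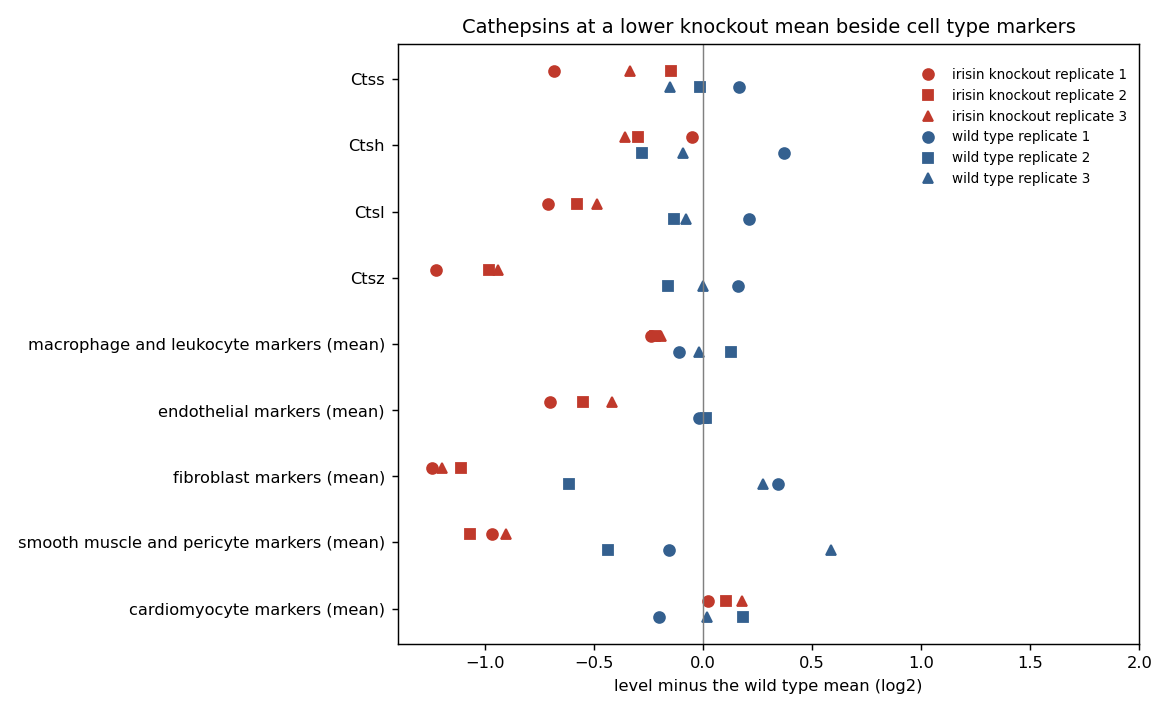
Level on each array minus the wild type mean, on the log2 scale, for the 4 cathepsins with a lower knockout mean and for the mean of each list of cell type markers, irisin knockout above wild type in each row. Ctsz, Ctsl and the means of all marker lists but the cardiomyocyte one lie apart between groups, and the cardiomyocyte mean overlaps. The highest knockout mean of the macrophage and leukocyte list was 3.90 and its lowest wild type mean 3.99. Within the smooth muscle and pericyte list 3 genes were called higher and 5 lower.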

How the data were processed

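The authors deposited log2 values, 1 per probe set and array. The submitters' processing notes name RMA, affy 1.61.0 and R 3.6.0. RNA was extracted with TRIzol and labelled with the WT Plus kit, per the labels' protocols. How probe sets were defined, and on which genome build, is not stated in these sources. The log2 scale was inferred from the range of values, and no detection calls were used, so dim values are not told apart from background.

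Of 25206 rows, 23185 had 1 gene symbol in the platform annotation and 2021 had none. Knockout minus wild type was tested with limma 3.58.1 (lmFit, eBayes, genotype only) in R 4.3.3, two-sided, with Benjamini-Hochberg adjustment over the 23185 genes at 0.05. The code was tested on simulated data. Level classes are 10 equal parts of the genes by mean level. Plots used matplotlib 3.10.9. No filter was applied.

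Members, lists and the naming rule were chosen with earlier results of these data known. Named by rule are all members, Fndc5 and the 3 genes nearest to Tfeb. In each list the rule names at most 4 called genes by p (or the 2 of lowest p if none was called). Named outside it, with their values known, are Ctsk, Tfe3, Tfec, Npc2, Tpcn2, Atp6v0b and Mtor. So are the markers C1qa, Tyrobp, Mertk, Adgre1, C1qb, Cd68, Ccr2, Fcgr1, Aif1, Actc1, Tnnt2 and Ttn. Promoter sequences are RefSeq's.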

Additional observations from a re-analysis of the deposited data

How the results depend on the processing

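Of the members, 3 were higher and 2 lower on the deposited values. With the replicate number as a block the counts were again 3 and 2 (2247 and 1330 of all genes). Same-numbered arrays correlated by 0.048 to 0.090 in their deviations from the group means. Arrays of different number were not compared, so these values cannot show whether the numbers pair the samples. The main fit took the arrays as unpaired. After quantile normalization 0 members were higher (limma; 3 at an unadjusted p under 0.05) and 2 lower. Without both arrays numbered 1 the lower members were 1 and the lower genes 938. At a threshold of 0.01 the members were 1 and 1, and all genes 1256 and 528, and at 0.1 the lower genes were 2212. Leaving out each array gave 1 to 3 higher and 1 to 2 lower members, and 1403 to 2570 higher and 701 to 1593 lower genes; the low ends for the members came without knockout replicate 1 or 2. Centring shifted the median difference of all genes by 0.10. Signs turned only for genes that did not pass. After quantile normalization these were Ctsd (-0.13), Lamp1 (-0.26), Tfeb (-0.032), Nbdy (-0.066) and Copg1 (-0.048). Pafah1b2 turned after centring (0.090) and without both arrays numbered 1 (0.14). Without 1 array each, Lamp1 ran from -0.053 to 0.11, Tfeb from -0.053 to 0.12, Pafah1b2 from -0.092 to 0.076 and Nbdy from -0.059 to 0.13. Among lists, counts over the fits without 1 array were 7 to 12 for hydrolases higher, 4 to 9 for membrane proteins higher and 0 to 2 lower, 1 to 6 for pump subunits higher, 2 to 4 for sorting genes, 4 to 9 for fibroblast, 2 to 5 for endothelial, 2 to 6 for smooth muscle and 1 to 3 for macrophage markers lower. Macrophage markers lower were 4, and higher 1, after quantile normalization. The causes were not tested.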
